A study of Mus musculus with 8 samples.

Results

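The B cell receptor response described here is that of WEHI-miR-148a, a stable mouse line derived from the immature B cell lymphoma WEHI-231 and named for the microRNA miR-148a. Anti-IgM, an antibody that crosslinks the IgM receptor on these cells, was given at 2 ug/ml for 14 h, and the reference was the same line without it. The comparison holds 4 libraries of 8 in the series, 2 with anti-IgM and 2 unstimulated, chosen by their labels and paired by the prefixes R137 and R143 of their labels, here called runs. The other 4 libraries are the same pair of conditions in WEHI-control and are used only to show where the 2 lines differ. All cells were grown in DMEM with serum and 2-mercaptoethanol, RNA was extracted with Trizol, and polyA-selected RNA was made into directional libraries. The labels do not say which vector or promoter drives the microRNA, whether either line is a clone or a pool, or whether the 2 libraries of a group came from separate cultures. All p-values rest on the spread between 2 libraries a group, and that spread may be technical only.

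Crosslinking the receptor on an immature B cell stands in for meeting a self antigen. In WEHI-231 it is known as a model of clonal deletion, in which the cells lose Myc, stop in G1 and later die. Signals run from the receptor through kinases to calcium, ERK and NF-kB, while FOXO factors, which act when PI3K signalling is low, drive genes of quiescence. The microRNA miR-148a is known to promote the survival of immature B cells that meet self antigen, with the pro-apoptotic gene Bcl2l11 and the growth arrest gene Gadd45a among its reported targets. A microRNA pairs with a messenger RNA through its seed, bases 2 to 8, which are in capitals in the mature mouse sequence from RefSeq (GRCm38.p6, chr6:51269829-51269850, minus strand). The sequence is shown because the seed sites examined at the end are its complement.
mmu-miR-148a-3p: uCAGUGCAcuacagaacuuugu

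Mature microRNAs carry no polyA tail and were not measured, so the label of the line could not be checked on it. The Mir148a row held 1 count in the run R137 unstimulated library of this line and 0 counts in its other 3 libraries. Totals were 5977803 and 10524385 counts in the anti-IgM libraries of runs R137 and R143, against 13455855 and 13242205 in the unstimulated libraries, and 3 counts, the limit that a count of 0 allows, came to 0.230 to 0.493 CPM. CPM is the count scaled to a common library size, with TMM factors. All 11 B lineage markers examined were measured, among them Cd79a and Cd79b. Of 11 monocyte, macrophage and neutrophil markers 4 passed the filter on low counts, and 2 of these were called higher. Their summed level was 16.9 and 17.1 CPM with anti-IgM, against 5.21 and 4.38 CPM unstimulated, and the integrin gene Itgam was among them. The receptor gene Csf1r held 2 and 14 counts with anti-IgM, against 1 and 2 counts unstimulated, and 4 of the 11, among them Lyz2, S100a8 and S100a9, held 0 counts in all 4 libraries. Of 11 T cell markers 4 passed the filter, with a median log2 fold change of 1.84, and 3 of these were called higher. Markers of T cells summed to 169 and 141 CPM with anti-IgM, against 108 and 85.0 CPM unstimulated. The sum was mostly the kinase Lck, which B lymphoma lines also express. Their part in the results was not tested. In bulk RNA, fewer cells of a kind and less of a transcript per cell cannot be told apart.

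Anti-IgM changed the level of 2569 genes upward and 2636 downward in the miR-148a line. Levels of growth genes fell, with Myc, the cyclin Ccnd2 and the whole measured ribosome biogenesis list lower. Levels of interferon-stimulated genes, MHC class II genes, FOXO targets, inhibitory receptors, lysosomal genes and genes of the actin and annexin cytoskeleton were mostly higher. Of 11291 genes tested, 5205 (46.1%) passed edgeR's quasi-likelihood F test at an adjusted p under 0.05, with 22.8% called higher and 23.3% called lower. Every list count below is to be read beside these shares. A gene is called here when it passes that threshold, and a log2 fold change is always anti-IgM over unstimulated. The test was fitted to all 8 libraries with run as a block, because the libraries of 1 run deviated together. Without the run block 3238 genes were called, 1659 higher and 1579 lower. The count was 3377 without the unstimulated library of run R137 and 3295 without the anti-IgM library of run R143.

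Most called changes were small. The median absolute log2 fold change of called genes was 0.557, and 2287 of them changed by less than 0.5. Among the called genes, 730 rose by more than 1 and 286 fell by more than 1 on the log2 scale. Beyond a log2 fold change of 2 the numbers were 139 higher and 28 lower, so the large changes were mostly upward. All but 3 called genes had the same sign in both runs. That follows largely from the call, which rests on the same runs, and the share over all tested genes was not computed. Genes called higher held 22.4% of the summed CPM in the anti-IgM group, against 14.5% in the unstimulated group. Genes called lower held 29.7% with anti-IgM, against 39.4% unstimulated.

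**Figure D1:**
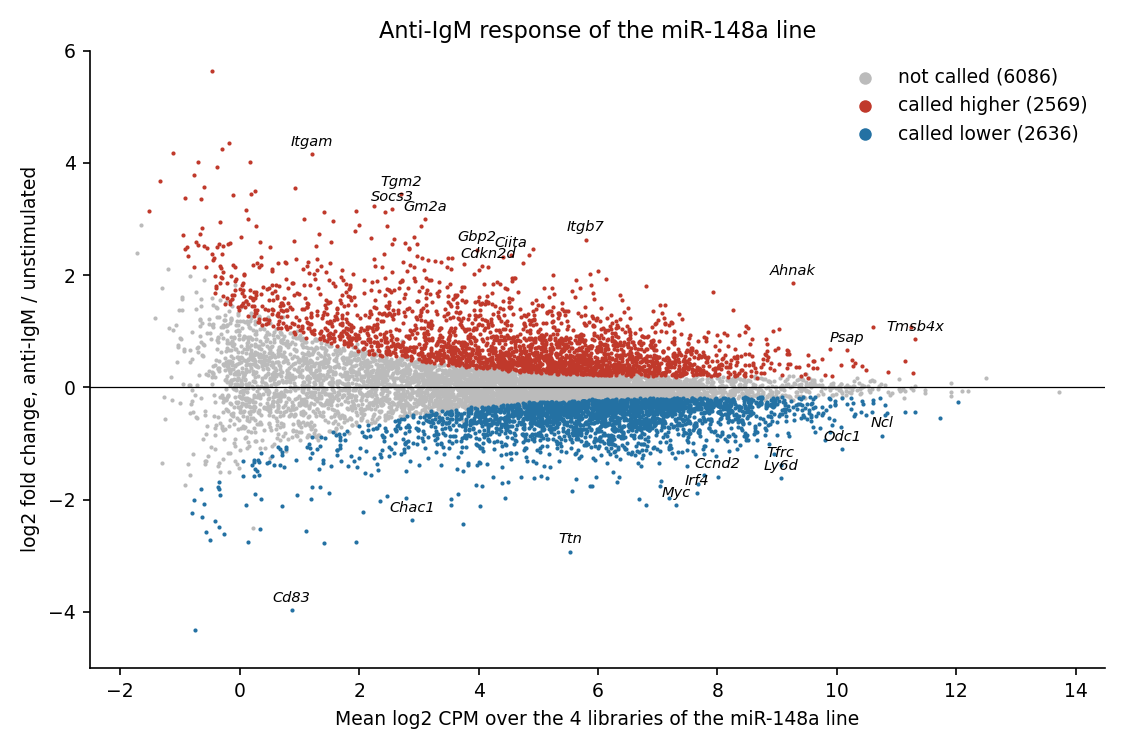
Each point is 1 of the 11291 tested genes, with its mean log2 CPM over the 4 libraries of the miR-148a line on the x axis and its log2 fold change, anti-IgM over unstimulated, on the y axis. The 2569 genes called higher (red) reach larger changes than the 2636 called lower (blue), and 6 genes lie outside the y axis.

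The largest rises among well expressed genes named here were led by Gm2a, Camkk1 and Itgb7. Gm2a, the lysosomal activator of ganglioside breakdown, was at 24.5 and 22.6 CPM in the anti-IgM libraries, against 2.83 and 3.07 CPM in the unstimulated libraries (log2 fold change 3.003 ± 0.22). Camkk1, a kinase upstream of calmodulin-dependent kinases and AMPK, was at 22.7 and 20.9 CPM with anti-IgM, against 3.22 and 2.61 CPM unstimulated (2.88 ± 0.18). The integrin chain Itgb7, which directs lymphocytes to the gut, was at 127 and 148 CPM with anti-IgM, against 20.1 and 24.5 CPM unstimulated (2.63 ± 0.18). In each of these genes both anti-IgM libraries lay above both unstimulated ones. Here and below, such separation follows largely from naming called genes with large changes. The share of all tested genes that separate in this way was not computed. Plac8 (2.46 ± 0.16), Tcp11l2 (2.37 ± 0.24), the glycosyltransferase gene B3gnt5 (2.33 ± 0.15), Pira1 (2.30 ± 0.18), Hsd17b11 (2.27 ± 0.22) and Ppl, which encodes periplakin (2.23 ± 0.23), followed. Reads of Pira1 and its near-identical paralogs may have been split in an unknown way by the counting.

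The largest falls among well expressed genes named here were led by Ttn and Ncan. Ttn, the giant muscle protein titin, was at 10.7 and 25.8 CPM in the anti-IgM libraries, against 85.97 and 188 CPM in the unstimulated libraries (log2 fold change -2.93 ± 0.10). Ncan, the proteoglycan neurocan, was at 7.73 and 4.25 CPM with anti-IgM, against 29.3 and 30.7 CPM unstimulated (-2.44 ± 0.23). Ackr3, a scavenging receptor for the chemokine CXCL12, was at 8.39 and 7.11 CPM with anti-IgM, against 34.6 and 31.9 CPM unstimulated (-2.11 ± 0.13). Both anti-IgM libraries lay below both unstimulated ones in all 3 genes. Irf4, a transcription factor of activated B cells and plasma cells, fell to 107 and 104 CPM with anti-IgM, against 388 and 383 CPM unstimulated (-1.88 ± 0.12). The kinase gene Bmx (-2.10 ± 0.20), Fam129c (-2.09 ± 0.12), Glt25d1 (-1.999 ± 0.12), the signalling adaptor gene Tespa1 (-1.89 ± 0.23) and the nuclease gene Dnase1l3 (-1.84 ± 0.11) fell too. The 18 genes named for the largest rises and falls had adjusted p values of at most 1.53e-05 (Tespa1).

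By mean CPM, which is not scaled to transcript length, the largest called gains and losses lay in other genes. Tmsb4x, the actin-binding thymosin beta 4, was at 3428 and 3408 CPM with anti-IgM, against 1926 and 1851 CPM unstimulated, a gain seen in both runs (log2 fold change 0.86 ± 0.08). Ahnak, a very large scaffold protein under the membrane, was at 901 and 1507 CPM with anti-IgM, against 261 and 399 CPM unstimulated (1.86 ± 0.12), and Psap, the precursor of lysosomal saposins, at 1321 and 1576 CPM with anti-IgM, against 875 and 957 CPM unstimulated (0.66 ± 0.08). The nuclear transcripts Malat1 and Rn45s, the ribosomal RNA precursor, were called higher, but differed more between runs than between conditions. Malat1 was at 1851 and 6602 CPM in runs R137 and R143 with anti-IgM, against 991 and 2836 CPM unstimulated, and Rn45s at 1238 and 4103 CPM, against 714 and 1596 CPM. The unstimulated library of run R143 was above the anti-IgM library of run R137 for both, and both lost the call without the run block (adjusted p = 0.28 and 0.255, edgeR). Losses were led by Ly6d, a surface protein of the B lineage (355 and 261 CPM with anti-IgM, against 1070.5 and 812 CPM unstimulated, -1.62 ± 0.08), Odc1, Ncl, the chaperone gene Hspa8 (-0.54 ± 0.09), and the RNA-binding genes Hnrnpu (-0.49 ± 0.07) and Ddx5 (-0.44 ± 0.06).

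Growth genes gave the most uniform response. Myc, the transcription factor that drives ribosome production and cell growth, was at 78.1 and 75.7 CPM in the anti-IgM libraries, against 335 and 315 CPM in the unstimulated libraries, with -2.10 ± 0.22 as its log2 fold change (edgeR adjusted p = 4.18e-06; -2.10 in run R137 and -2.06 in run R143). The anti-IgM libraries lay far below the unstimulated ones and close to each other. All 49 measured ribosome biogenesis genes were called lower, against 23.3% of all tested genes, with a median log2 fold change of -0.82 (-0.73 in run R137 and -0.93 in run R143) where the median over all tested genes was -0.00031. The nucleolar GTPase gene Gnl3 was at 165 and 98.2 CPM with anti-IgM, against 401 and 358 CPM unstimulated (-1.56 ± 0.14), the ribosome assembly gene Rrs1 at 48.7 and 42.5 CPM with anti-IgM, against 125 and 129 CPM unstimulated (-1.51 ± 0.18) and the abundant nucleolar protein gene Ncl, for nucleolin, at 1411 and 1177 CPM with anti-IgM, against 2389.9 and 2306 CPM unstimulated (-0.86 ± 0.09). Ppan (-1.40 ± 0.16) and Rrp1b (-1.35 ± 0.11) completed the members with the largest falls.

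Within the network that shares the partner MAX with MYC, genes of the antagonists rose. Mxd3 was at 11.8 and 17.8 CPM with anti-IgM, against 2.99 and 4.69 CPM unstimulated (log2 fold change 1.95 ± 0.18), Mxd4 at 8.72 and 11.8 CPM with anti-IgM, against 4.29 and 4.30 CPM unstimulated (1.28 ± 0.20) and Mxd1 at 13.3 and 17.8 CPM with anti-IgM, against 7.74 and 8.30 CPM unstimulated (0.98 ± 0.17). Both anti-IgM libraries were above both unstimulated ones for each MXD gene. Of 12 network genes 5 were called higher and 3 lower, against 22.8% and 23.3% of all tested genes. The higher count was 3 without the run block.

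An E box, the letters CACGTG, is a known binding sequence of MYC with MAX and of several other factors. It stood within the 300 bases around the start site (250 before, 50 after, RefSeq) of 10 of 43 ribosome biogenesis genes with a promoter entry (23.3%). The share was 12.1% of the 9040 tested genes with an entry, 16.3% of genes called lower and 10.5% of genes called higher. Among lists described further on it was 5 of 16 FOXO factors and targets (31.2%), 4 of 13 synthetase genes (30.8%) and 1 of 26 interferon-stimulated genes (3.85%). The letters read the same on both strands, and a match is a description, not a site. The start-proximal stretches of 2 ribosome biogenesis genes are shown because they hold the E box, in capitals, before the start site (GRCm38.p6). Nop2, an rRNA methyltransferase gene at chr6:125131776-125131875, plus strand, had a log2 fold change of -1.14 and Rrn3, an initiation factor gene of RNA polymerase I at chr16:13780604-13780703, plus strand, of -0.77.
Nop2: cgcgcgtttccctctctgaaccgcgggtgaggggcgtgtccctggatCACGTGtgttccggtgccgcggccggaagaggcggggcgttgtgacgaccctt
Rrn3: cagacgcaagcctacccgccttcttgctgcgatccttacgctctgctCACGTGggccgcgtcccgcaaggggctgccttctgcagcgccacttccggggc

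The enzymes and carriers that feed growth fell as well. Odc1, the rate-limiting enzyme of polyamine synthesis, was at 869.5 and 629.8 CPM in the anti-IgM libraries, against 1708 and 1498 CPM in the unstimulated libraries (log2 fold change -1.11 ± 0.09). Of 19 polyamine and one-carbon enzymes, 12 were called lower and 2 higher, with Srm, spermidine synthase (-1.26 ± 0.13), Amd1, S-adenosylmethionine decarboxylase (-1.17 ± 0.10), and the serine hydroxymethyltransferase gene Shmt1 (-1.21 ± 0.13) furthest down. Aminoacyl-tRNA synthetases, which charge tRNAs for translation, were called lower in 19 of 20, with a median of -0.61. Yars was at 104 and 84.2 CPM with anti-IgM, against 182 and 185 CPM unstimulated (-0.98 ± 0.09) and Iars at 254 and 211 CPM with anti-IgM, against 427 and 423 CPM unstimulated (-0.88 ± 0.09), without overlap between the groups. Qars alone was not called (0.05 ± 0.08). Genes of the cytosolic ribosomal proteins themselves were mostly not called, 1 higher and 2 lower of 83, a share far under the 46.1% of all genes, and over all settings and libraries left out the counts ran from 0 to 5 higher and 0 to 3 lower. Their median was 0.01, and the abundant members Rpl4 (-0.09 ± 0.06) and Rpsa (-0.05 ± 0.06) were among those not called.

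**Figure D2:**
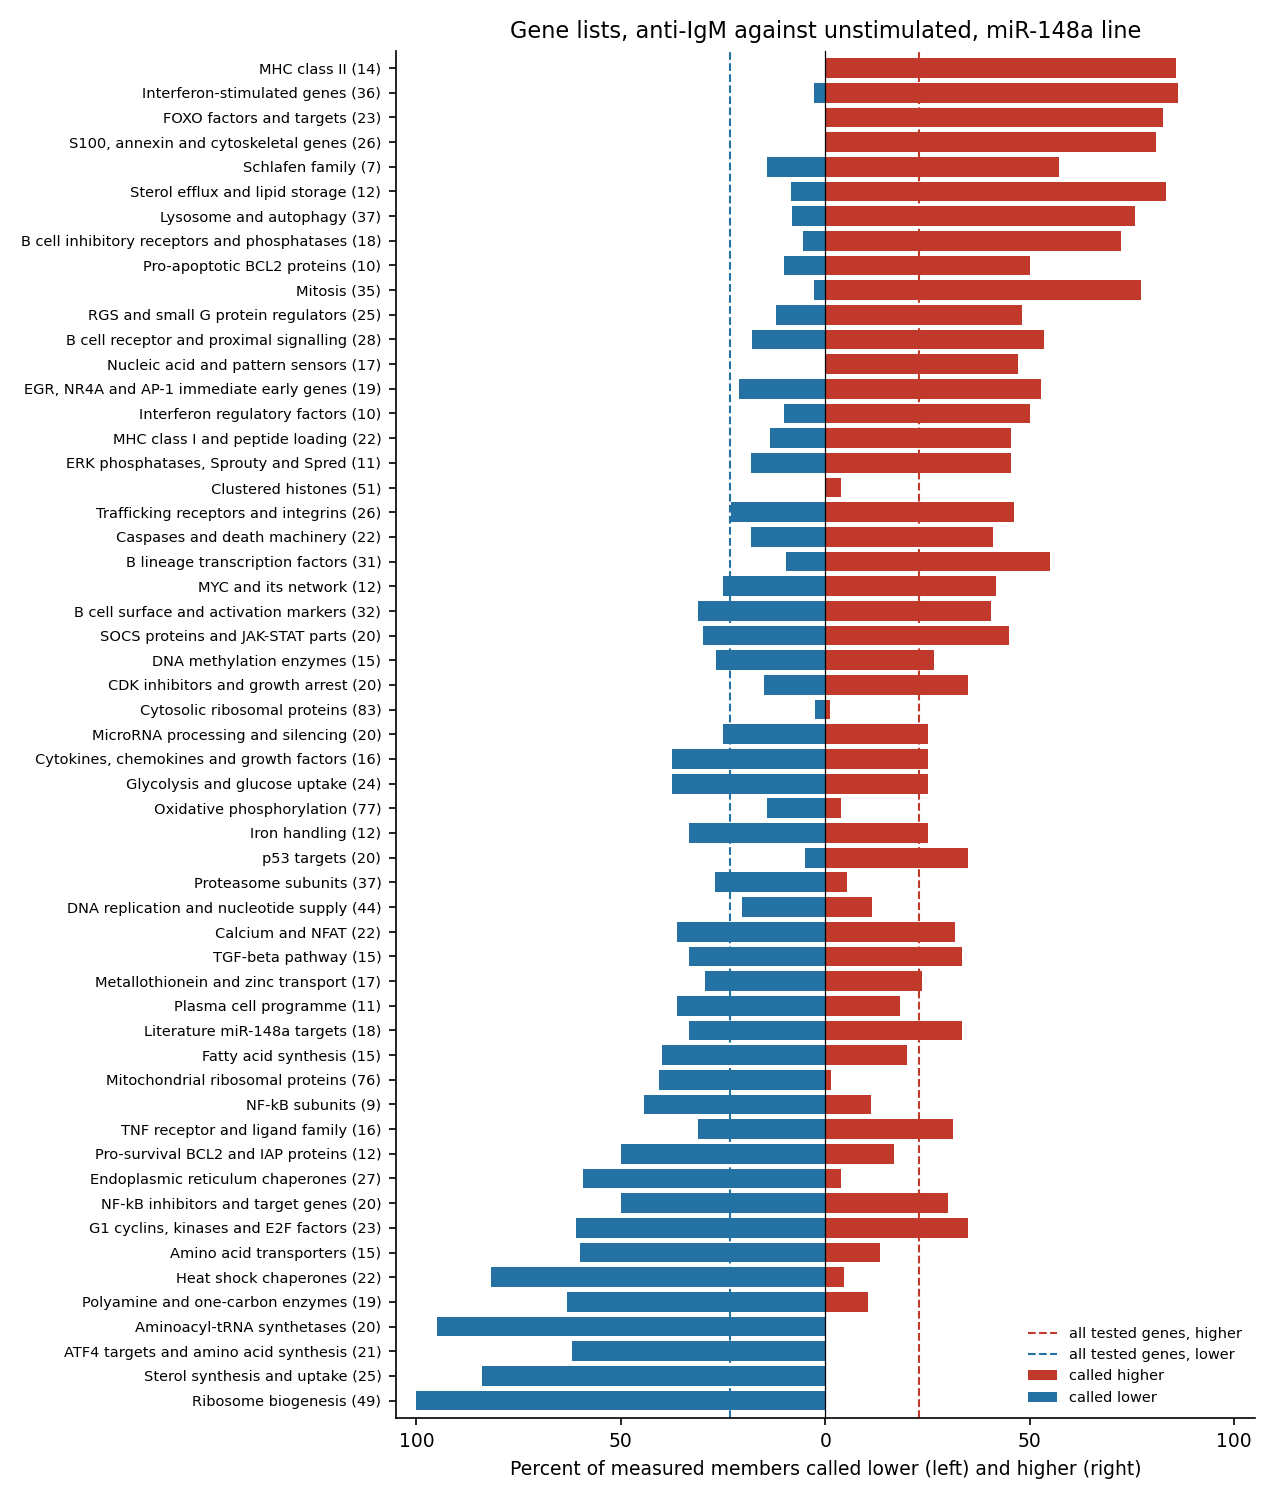
For each gene list (number of measured members in brackets), bars give the percent of members called lower (blue, left) and higher (red, right), with lists in the order of their median log2 fold change and dashed lines at the 22.8% and 23.3% of all tested genes. Ribosome biogenesis stands at the low end with 49 of 49 lower, and MHC class II at the high end with 12 of 14 higher.

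Amino acid supply genes under ATF4, the transcription factor of the amino acid and stress response, were lower. Of 21 measured targets and amino acid synthesis genes, 13 were called lower and 0 higher, with a median log2 fold change of -0.69 (-0.52 in run R137 and -0.79 in run R143). Chac1, which breaks down glutathione, was at 4.77 and 2.21 CPM in the anti-IgM libraries, against 12.9 and 19.4 CPM in the unstimulated libraries (-2.37 ± 0.28). The anti-IgM library of run R143 had the lowest Chac1 level and the unstimulated library of that run the highest. Asns, asparagine synthetase, was at 57.6 and 40.5 CPM with anti-IgM, against 104 and 99.01 CPM unstimulated (-1.08 ± 0.11), Aldh18a1, an enzyme of proline synthesis, at 65.6 and 55.7 CPM with anti-IgM, against 125 and 131 CPM unstimulated (-1.09 ± 0.10) and the secreted glycoprotein gene Stc2 at 12.01 and 9.87 CPM with anti-IgM, against 31.03 and 33.4 CPM unstimulated (-1.60 ± 0.14). The groups did not overlap in any of these genes. Amino acid transporters fell in 9 of 15, led by the neutral amino acid carrier gene Slc1a4 (12.5 and 9.69 CPM with anti-IgM, against 39.5 and 44.6 CPM unstimulated, -1.97 ± 0.13), and 2 rose, among them Slc43a2 (0.89 ± 0.13).

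ATF4 is known to bind with CEBP partners at a sequence of the form TGATGNAA. These letters, on either strand, stood in the start-site windows of 5 of 19 genes of the ATF4 list (26.3%) and 5 of 13 synthetase genes (38.5%). They stood in 2.7% of all tested genes with an entry, 2.71% of genes called lower and 3.13% of genes called higher. Stretches from the Chac1 promoter (chr2:119351003-119351102, plus strand) and the Asns promoter (chr6:7693179-7693278, minus strand) are shown because they belong to the member with the largest fall and to a much used reporter of the pathway. Capitals mark the motif, which reads in reverse complement in Chac1.
Chac1: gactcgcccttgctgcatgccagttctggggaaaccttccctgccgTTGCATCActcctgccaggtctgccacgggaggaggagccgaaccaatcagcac
Asns: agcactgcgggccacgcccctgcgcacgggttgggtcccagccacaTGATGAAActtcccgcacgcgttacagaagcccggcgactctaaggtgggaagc

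Genes of sterol synthesis and uptake fell together, while genes of sterol export rose. Of 25 synthesis and uptake genes, 21 were called lower and 0 higher (median log2 fold change -0.71; -0.67 in run R137 and -0.88 in run R143). Idi1, isopentenyl diphosphate isomerase, was at 134 and 90.9 CPM in the anti-IgM libraries, against 331 and 256 CPM in the unstimulated libraries (-1.40 ± 0.08). Hmgcs1, which makes HMG-CoA, was at 231 and 168 CPM with anti-IgM, against 478 and 391 CPM unstimulated (-1.14 ± 0.09), Msmo1, a sterol demethylating oxidase, at 47.7 and 32.8 CPM with anti-IgM, against 104 and 90.5 CPM unstimulated (-1.30 ± 0.11) and Hsd17b7 at 22.9 and 14.2 CPM with anti-IgM, against 45.6 and 38.4 CPM unstimulated (-1.23 ± 0.15). In each gene both anti-IgM libraries lay below both unstimulated ones. The regulator gene Srebf2 was not called (0.05 ± 0.06). The letters TCACNCCAC of a sterol element, searched on both strands, stood in the start-site windows of 1 of 18 synthesis and uptake genes with an entry (5.56%). They stood in 1.28% of all tested genes with an entry and 1.28% of genes called lower. Sterol efflux and lipid storage genes were called higher in 10 of 12 and lower in 1, with a median of 0.65. The cholesterol exporter genes Abcg1 and Abca1 were at 84.2 and 109.9 CPM with anti-IgM, against 22.3 and 34.8 CPM unstimulated (1.78 ± 0.14), and at 50.00 and 73.9 CPM with anti-IgM, against 23.5 and 22.98 CPM unstimulated (1.43 ± 0.17). Plin2, a coat protein of lipid droplets, was at 22.7 and 20.3 CPM with anti-IgM, against 5.59 and 6.38 CPM unstimulated (1.84 ± 0.15). The carnitine palmitoyltransferase gene Cpt1a, of fatty acid oxidation, rose (1.91 ± 0.16), and the fatty acid synthase gene Fasn fell (-0.84 ± 0.09).

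Chaperone genes were mostly lower, with smaller changes. Heat shock chaperones were called lower in 18 of 22 (median log2 fold change -0.45; 11 without the run block), among them the mitochondrial chaperonin gene Hspd1 (1027 and 691 CPM with anti-IgM, against 1562 and 1232 CPM unstimulated, -0.71 ± 0.09) and Hsph1 (-0.66 ± 0.10). The small heat shock protein gene Hspb1 alone was called higher (33.1 and 24.4 CPM with anti-IgM, against 15.3 and 14.7 CPM unstimulated, 0.91 ± 0.13). Endoplasmic reticulum chaperones and their regulators were called lower in 16 of 27 (median -0.28), with Herpud1, of the degradation pathway, at -1.01 ± 0.10, and Atf6, a sensor of unfolded protein, called higher (0.72 ± 0.08). That count was 7 without the run block, 10 without the unstimulated library of run R137 or without the unstimulated library of run R143, and 8 without the anti-IgM library of run R143. Mitochondrial ribosomal proteins were called lower in 31 of 76 (median -0.21), led by Mrps18b (-0.76 ± 0.11) and Mrpl36 (-0.75 ± 0.11), and in 19 without the run block, without the unstimulated library of run R137 or without the unstimulated library of run R143, 20 by DESeq2's Wald test, and 12 without the anti-IgM library of run R143.

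Genes of the G1 machinery were called in both directions, more of them lower. The G1 cyclin genes Ccnd2 and Ccnd1 and the kinase gene Cdk6, which together push cells past G1, fell. Ccnd2 was at 166 and 131 CPM in the anti-IgM libraries, against 441 and 453 CPM in the unstimulated libraries (log2 fold change -1.60 ± 0.16), and Cdk6 at 30.3 and 38.9 CPM with anti-IgM, against 74.7 and 85.7 CPM unstimulated (-1.23 ± 0.11). Ccnd1 was at 9.21 and 7.94 CPM with anti-IgM, against 25.4 and 29.98 CPM unstimulated (-1.75 ± 0.18). E2f2, of the factors that drive entry into S phase, rose instead, to 227 and 295 CPM with anti-IgM, against 103 and 121 CPM unstimulated (1.22 ± 0.10). None of these 4 genes overlapped between groups. Over the list of G1 cyclins, kinases and E2F factors 14 of 23 were called lower and 8 higher. The lower count was 9 without the run block or without the anti-IgM library of run R143, and the higher count was 4 without the run block or without the unstimulated library of run R137, and 5 without the unstimulated library of run R143 or without the anti-IgM library of run R143.

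Mitosis genes, which peak as cells divide, were called higher in 27 of 35 and lower in 1, with a median log2 fold change of 0.43 (0.50 in run R137 and 0.34 in run R143). Cdc25b, the phosphatase that activates CDK1, was at 87.3 and 64.97 CPM in the anti-IgM libraries, against 20.3 and 17.6 CPM in the unstimulated libraries (1.997 ± 0.11). Foxm1, a transcription factor of mitotic genes, was at 101 and 117 CPM with anti-IgM, against 57.2 and 68.1 CPM unstimulated (0.80 ± 0.09), Nusap1, of the spindle, at 242 and 236 CPM with anti-IgM, against 139 and 141 CPM unstimulated (0.77 ± 0.10) and Ccnf at 114 and 120.4 CPM with anti-IgM, against 65.2 and 76.02 CPM unstimulated (0.73 ± 0.08). Top2a, the topoisomerase that untangles chromosomes, was at 2777 and 2570.5 CPM with anti-IgM, against 1919 and 1944 CPM unstimulated (0.47 ± 0.07). The groups did not overlap in these genes. DNA replication genes were called in 5 higher and 9 lower of 44, shares under those of all tested genes, with the origin recognition genes Orc2 (-1.06 ± 0.10) and Orc1 (-0.61 ± 0.10) and the helicase gene Mcm2 (-0.47 ± 0.07) lower. The higher count was 2 without the run block or without the unstimulated library of run R143, and 1 without the unstimulated library of run R137 or without the anti-IgM library of run R143, and the lower count 4 without the run block, and 5 without the unstimulated library of run R137. Shares of cells in each phase were not measured.

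Inhibitors of the cell cycle and stress genes rose in part. Cdkn2d, which encodes the CDK4 and CDK6 inhibitor p19INK4d, was at 34.2 and 39.96 CPM in the anti-IgM libraries, against 7.43 and 9.45 CPM in the unstimulated libraries (log2 fold change 2.15 ± 0.16). Cdkn1a, for the inhibitor p21, was at 132 and 103 CPM with anti-IgM, against 59.9 and 37.7 CPM unstimulated (1.29 ± 0.09), and Ccng2 at 88.98 and 104 CPM with anti-IgM, against 42.8 and 40.8 CPM unstimulated (1.23 ± 0.15). Both anti-IgM libraries were above both unstimulated ones in all 3. Gadd45g, a stress sensor of the GADD45 family, was at 7.24 and 7.38 CPM with anti-IgM, against 1.23 and 0.461 CPM unstimulated (3.13 ± 0.32). Of 20 CDK inhibitor and growth arrest genes 7 were called higher and 3 lower, and of 20 p53 targets 7 higher and 1 lower, with medians of 0.11 and -0.06. Over all tested genes 22.8% were called higher and 23.3% lower. Trp53inp1 (1.81 ± 0.15) and Ddit4, an inhibitor of mTORC1 (1.65 ± 0.14), were among those that rose, and the nuclease gene Aen fell (-1.06 ± 0.16). Mdm2, a p53 target and inhibitor, was not called (0.14 ± 0.08). The p53 count of higher members was 4 without the run block or without the unstimulated library of run R137.

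FOXO factors and their targets were called higher in 19 of 23 and lower in 0, with a median log2 fold change of 0.77 (0.66 in run R137 and 0.87 in run R143). Pik3ip1, an inhibitor of PI3K, was at 14.97 and 19.8 CPM in the anti-IgM libraries, against 2.45 and 4.46 CPM in the unstimulated libraries (2.34 ± 0.22). Ccr7, a homing receptor for lymph nodes, was at 17.1 and 23.7 CPM with anti-IgM, against 4.21 and 4.54 CPM unstimulated (2.25 ± 0.24). In both genes the anti-IgM libraries stood above the unstimulated ones. The count was 11 without the anti-IgM library of run R143. The forkhead letters TGTTTAC, searched on both strands, stood in the start-site windows of 4 of 16 of these genes (25%) and in 2.95% of all tested genes with an entry.

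Genes of the cell death machinery changed in both directions. Among pro-apoptotic BCL2 proteins 5 of 10 were called higher and 1 lower, against 22.8% and 23.3% of all tested genes. Bmf, a BH3-only protein tied to the cytoskeleton, was at 12.8 and 26.02 CPM in the anti-IgM libraries, against 4.98 and 5.77 CPM in the unstimulated libraries (log2 fold change 1.88 ± 0.26). Bak1, which forms pores in mitochondria, was at 76.1 and 93.8 CPM with anti-IgM, against 37.6 and 52.04 CPM unstimulated (0.93 ± 0.10), and Bid, which links death receptors to mitochondria, fell to 207 and 199 CPM with anti-IgM, against 349 and 370.4 CPM unstimulated (-0.82 ± 0.08). The groups did not overlap in these genes. Bcl2l11, which encodes the BH3-only protein Bim, was at 52.8 and 73.00 CPM with anti-IgM, against 44.7 and 39.97 CPM unstimulated (0.58 ± 0.13, adjusted p = 0.00195). Its call was lost without the unstimulated library of run R143 (edgeR adjusted p = 0.0847) and without the anti-IgM library of run R143 (edgeR adjusted p = 0.0795). Over the list the count of higher members was 3 without the unstimulated library of run R143 or without the anti-IgM library of run R143.

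Genes that protect from death were called lower in 6 of 12 and higher in 2, against 23.3% and 22.8% of all tested genes. Bcl2 was at 87.3 and 102 CPM in the anti-IgM libraries, against 133 and 149.9 CPM in the unstimulated libraries (log2 fold change -0.58 ± 0.09), and Birc3, an inhibitor of apoptosis and NF-kB target, at 83.5 and 80.1 CPM with anti-IgM, against 141 and 129.7 CPM unstimulated (-0.73 ± 0.10). The lower count was 3 without the unstimulated library of run R137. Casp8, the initiator caspase of death receptors, was at 109 and 108 CPM with anti-IgM, against 53.2 and 57.96 CPM unstimulated (0.97 ± 0.10), Casp9, the initiator of the mitochondrial route, at 28.3 and 33.96 CPM with anti-IgM, against 16.7 and 17.1 CPM unstimulated (0.89 ± 0.12), and its scaffold gene Apaf1 at 98.4 and 104 CPM with anti-IgM, against 57.2 and 64.1 CPM unstimulated (0.74 ± 0.11). Both anti-IgM libraries lay above both unstimulated ones for each of the 3. Caspases and death machinery were called higher in 9 of 22 and lower in 4, against 22.8% and 23.3% of all tested genes. The lower count was 1 without the run block, and 2 by DESeq2's Wald test, without the unstimulated library of run R137, without the unstimulated library of run R143 or without the anti-IgM library of run R143.

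Interferon-stimulated genes, the antiviral set normally switched on by interferon, were called higher in 31 of 36 measured, against 22.8% of all tested genes. Their median log2 fold change was 0.93 (0.83 in run R137 and 0.88 in run R143). Gbp2, an interferon-induced GTPase, was at 33.7 and 38.6 CPM in the anti-IgM libraries, against 5.98 and 7.30 CPM in the unstimulated libraries (2.45 ± 0.17). Zbp1, a sensor of Z-form nucleic acid, was at 19.9 and 17.4 CPM with anti-IgM, against 2.83 and 2.92 CPM unstimulated (2.67 ± 0.21), Oas2 at 3.62 and 2.95 CPM with anti-IgM, against 0.230 and 0.154 CPM unstimulated (4.01 ± 0.48) and Irf7, an amplifier of the response, at 15.8 and 15.96 CPM with anti-IgM, against 5.90 and 4.30 CPM unstimulated (1.66 ± 0.18). No anti-IgM library overlapped an unstimulated one in these 4 genes. The unstimulated Oas2 values lie at or below the floor of 3 counts (0.230 and 0.231 CPM), so the size of its rise is uncertain. Reads of guanylate-binding and Schlafen genes may be shared with near-identical paralogs. Irf9, a DNA-binding part of the factor that interferon activates, rose (0.89 ± 0.14). Of the 5 members not called higher, 1 was called lower and 4 were not called.

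The core of the element bound by interferon regulatory factors is GAAA repeated with 2 bases between, or TTTC repeated on the other strand. It stood in the start-site windows of 9 of 26 list members with an entry (34.6%), against 3.5% of all tested genes, 4.75% of genes called higher and 3.09% of genes called lower. Stretches of Gbp2 (chr3:142620559-142620658, plus strand) and Gbp3 (chr3:142559960-142560059, plus strand, log2 fold change 0.98) are shown because they belong to 1 family and were both called higher, with the repeat in capitals. Isg15 (chr4:156200830-156200929, minus strand) is shown beside them because its repeat is longer and its level was not called (log2 fold change -0.01).
Gbp2: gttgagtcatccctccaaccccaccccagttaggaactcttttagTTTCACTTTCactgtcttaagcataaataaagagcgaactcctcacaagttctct
Gbp3: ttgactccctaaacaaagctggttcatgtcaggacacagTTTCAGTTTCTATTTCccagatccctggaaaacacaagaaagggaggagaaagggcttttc
Isg15: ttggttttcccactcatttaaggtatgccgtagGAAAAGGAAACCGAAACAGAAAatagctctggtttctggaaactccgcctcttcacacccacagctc

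Genes that sense microbial nucleic acid or cell walls were called higher in 8 of 17 and lower in 0. Tmem173, which encodes the adaptor STING, was at 79.8 and 92.00 CPM in the anti-IgM libraries, against 34.9 and 42.3 CPM in the unstimulated libraries (log2 fold change 1.16 ± 0.10), and Nod1 at 64.6 and 73.1 CPM with anti-IgM, against 28.7 and 25.2 CPM unstimulated (1.37 ± 0.12), without overlap between groups. Nod2 (1.61 ± 0.25) and Tlr6 (1.25 ± 0.19) rose too. Among the Schlafen family, interferon-inducible genes of lymphocyte quiescence in mice, 4 of 7 were called higher and 1 lower. The summed level of the 7 was 146 and 132 CPM with anti-IgM, against 126 and 129 CPM unstimulated. Slfn5 was at 5.59 and 5.54 CPM with anti-IgM, against 0.536 and 0.384 CPM unstimulated (3.56 ± 0.35), and Slfn8 at 10.5 and 18.2 CPM with anti-IgM, against 4.83 and 5.61 CPM unstimulated (1.47 ± 0.19).

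MHC class II genes, which present peptides to helper T cells, were called higher in 12 of 14 and lower in none, with a median log2 fold change of 1.23. The runs differed in size, with a median of 0.69 in run R137 and a larger one in run R143. Ciita, the master activator of the class, was at 33.4 and 77.1 CPM in the anti-IgM libraries, against 7.59 and 14.2 CPM in the unstimulated libraries (2.35 ± 0.23). The peptide exchange genes H2-DMa and H2-DMb1 were at 19.4 and 34.4 CPM with anti-IgM, against 9.04 and 9.84 CPM unstimulated (1.53 ± 0.18), and at 3.12 and 5.44 CPM with anti-IgM, against 0.996 and 1.31 CPM unstimulated (1.93 ± 0.33). In each the anti-IgM library of run R143 had the highest level. Without that library the count of higher members was 5. The regulators Rfx5 (-0.17 ± 0.11) and Rfxap (-0.11 ± 0.16) were not called. Class I and peptide loading genes were called higher in 10 of 22 and lower in 3, with the nonclassical genes H2-T23 (29.8 and 44.4 CPM with anti-IgM, against 12.7 and 15.2 CPM unstimulated, 1.43 ± 0.16) and H2-T24 (1.29 ± 0.15) among the highest, though reads of these near-identical genes may be split in an unknown way.

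More of the receptor's own signalling genes were called higher than lower. Of 28 receptor and proximal signalling genes 15 were called higher and 5 lower, with a median log2 fold change of 0.37. Dapp1, an adaptor under PI3K, was at 26.97 and 35.1 CPM in the anti-IgM libraries, against 10.4 and 16.2 CPM in the unstimulated libraries (1.23 ± 0.15), Bank1, a scaffold, at 61.02 and 75.7 CPM with anti-IgM, against 30.8 and 36.4 CPM unstimulated (1.03 ± 0.09), and the Src-family kinase gene Blk at 153 and 146 CPM with anti-IgM, against 87.8 and 73.1 CPM unstimulated (0.91 ± 0.13). The groups did not overlap in these genes. Btk (0.16 ± 0.07) and Cd79a (0.15 ± 0.07) were not called. The count of lower members was 1 without the run block, 3 by DESeq2's Wald test or without the anti-IgM library of run R143, and 2 without the unstimulated library of run R137.

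Inhibitory receptors and phosphatases were called higher in 13 of 18 and lower in 1, with a median log2 fold change of 0.45. Fcgr2b, the inhibitory IgG receptor, was at 73.7 and 98.7 CPM in the anti-IgM libraries, against 23.4 and 33.3 CPM in the unstimulated libraries (1.61 ± 0.14). Siglecg, a sialic acid receptor that dampens calcium, was at 10.03 and 12.3 CPM with anti-IgM, against 5.21 and 3.61 CPM unstimulated (1.42 ± 0.26), Pirb, an inhibitory receptor for class I molecules, at 77.8 and 92.8 CPM with anti-IgM, against 22.98 and 29.2 CPM unstimulated (1.71 ± 0.12), and the intracellular Fc receptor relative Fcrla at 96.05 and 129 CPM with anti-IgM, against 26.3 and 37.2 CPM unstimulated (1.83 ± 0.14). Every anti-IgM value was above every unstimulated one for these 4 genes. The coreceptor Cd22 rose (0.82 ± 0.09).

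Feedback on cytokine signalling rose sharply at Socs3, an inhibitor of JAK kinases, with 13.2 and 20.9 CPM in the anti-IgM libraries, against 1.99 and 1.77 CPM in the unstimulated libraries (log2 fold change 3.18 ± 0.28). Jak2 was at 94.1 and 103 CPM with anti-IgM, against 43.4 and 44.2 CPM unstimulated (1.18 ± 0.10), and the survival kinase gene Pim2 fell (100.2 and 98.7 CPM with anti-IgM, against 238 and 193 CPM unstimulated, -1.11 ± 0.09). The groups did not overlap in these genes. Of 20 SOCS and JAK-STAT genes 9 were called higher, or 5 without the unstimulated library of run R137, and 6 lower. Among immediate early genes, the transcription factors that receptor signals switch on within the first hour, the 14 h samples held Jun at 37.8 and 28.4 CPM with anti-IgM, against 18.2 and 6.84 CPM unstimulated (1.45 ± 0.21), and Nab1, a corepressor of EGR factors, at 8.06 and 4.25 CPM with anti-IgM, against 2.22 and 1.54 CPM unstimulated (1.63 ± 0.33). Nr4a1, an orphan nuclear receptor induced by receptor signals, fell to 12.8 and 10.5 CPM with anti-IgM, against 37.5 and 36.9 CPM unstimulated (-1.70 ± 0.14). In all, 10 of 19 were called higher and 4 lower. Members called higher numbered 6 without the run block, by DESeq2's Wald test, without the unstimulated library of run R137 or without the anti-IgM library of run R137, and 5 without the unstimulated library of run R143. The lower count was 2 without the run block, without the unstimulated library of run R137 or without the anti-IgM library of run R143.

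NF-kB genes were lower more often than higher. The inhibitor genes Nfkbid and Nfkbie, which NF-kB itself induces, were at 69.1 and 79.8 CPM with anti-IgM, against 274 and 300.1 CPM unstimulated (log2 fold change -1.97 ± 0.15), and at 32.2 and 31.8 CPM with anti-IgM, against 102 and 112 CPM unstimulated (-1.76 ± 0.15). Cd83, an NF-kB target and activation marker, was at 0.493 and 0.277 CPM with anti-IgM, against 8.04 and 4.23 CPM unstimulated (-3.97 ± 0.53). Both anti-IgM values of Cd83 lie at the floor of 3 counts, so the size of this fall is uncertain. Among the subunits Relb was at 23.03 and 18.3 CPM with anti-IgM, against 38.1 and 39.4 CPM unstimulated (-0.94 ± 0.15), and Rel at 60.4 and 61.00 CPM with anti-IgM, against 97.00 and 92.01 CPM unstimulated (-0.64 ± 0.10). Anti-IgM libraries stood below unstimulated ones in all 5 genes. Inhibitors and targets were called lower in 10 of 20 and higher in 6, and subunits and kinases lower in 4 of 9 and higher in 1. In the TNF receptor family, Cd40, the receptor for T cell help, fell (62.99 and 57.8 CPM with anti-IgM, against 123 and 132 CPM unstimulated, -1.09 ± 0.11), Tnfrsf19 fell (-1.76 ± 0.12), and Tnfrsf1b (8.88 and 9.51 CPM with anti-IgM, against 2.83 and 2.998 CPM unstimulated, 1.64 ± 0.20) and Tnfrsf1a (0.995 ± 0.17) rose.

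Calcium and small G protein genes were called in both directions. Nfatc2, a calcium-dependent transcription factor, was at 47.7 and 65.7 CPM in the anti-IgM libraries, against 23.8 and 20.9 CPM in the unstimulated libraries (log2 fold change 1.35 ± 0.13), and the calcium pump gene Atp2b4 at 30.3 and 32.8 CPM with anti-IgM, against 11.1 and 13.8 CPM unstimulated (1.34 ± 0.16). Calcium and NFAT genes were called higher in 7 of 22 and lower in 8, against 22.8% and 23.3% of all tested genes, or lower in 3 without the run block, where 1579 of all 11291 genes were lower. Regulators of G proteins were called higher in 12 of 25 and lower in 3, with Rasa3, which switches off RAS and RAP, at 13.8 and 18.73 CPM with anti-IgM, against 2.83 and 3.15 CPM unstimulated (2.49 ± 0.28), and Arhgap15, which switches off RAC, at 1.64 and 2.40 CPM with anti-IgM, against 0.230 and 0.384 CPM unstimulated (2.69 ± 0.51). Both anti-IgM libraries were above both unstimulated ones for these 4 genes. The run R137 unstimulated value of Arhgap15 lies at the floor of 3 counts, so the size of its rise is uncertain.

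**Figure D3:**
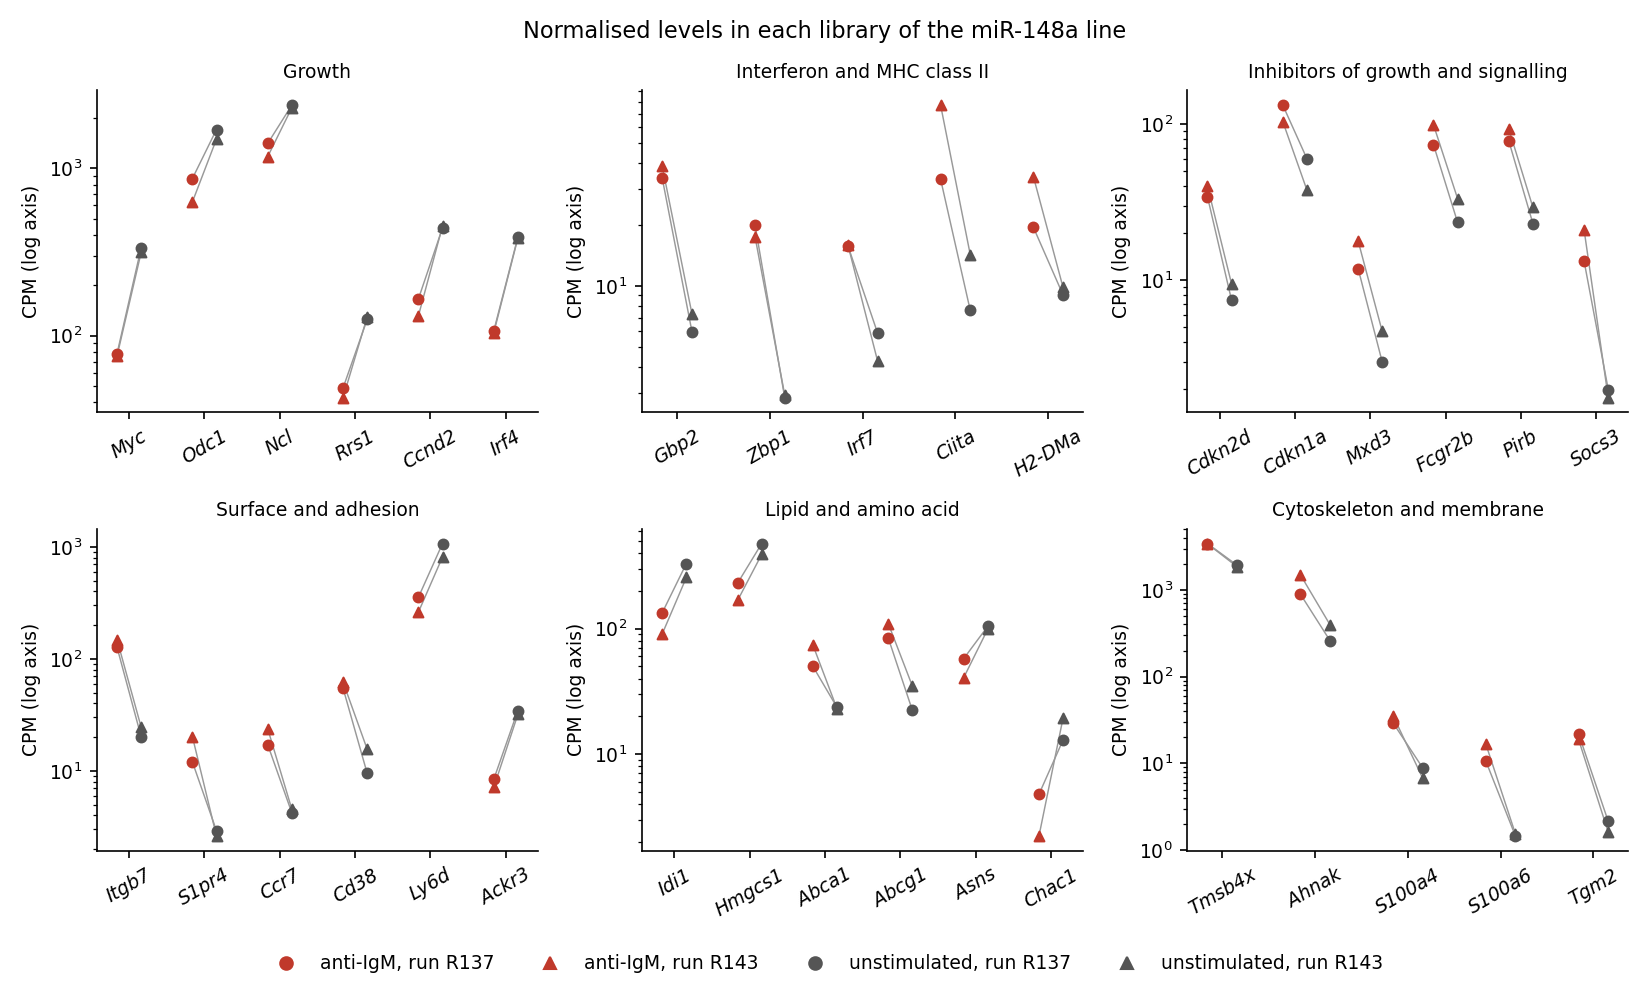
Each panel gives the CPM (log axis) of 5 or 6 genes in the 4 libraries of the miR-148a line, anti-IgM in red at left and unstimulated in grey at right of each pair, with circles for run R137, triangles for run R143 and lines joining libraries of 1 run. In each gene shown both anti-IgM libraries lie on the same side of both unstimulated ones, as for Myc at 78.1 and 75.7 CPM against 335 and 315 CPM.

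Surface and adhesion genes changed widely. Cd38, a surface enzyme of B cell stages, was at 54.6 and 62.01 CPM in the anti-IgM libraries, against 9.50 and 15.6 CPM in the unstimulated libraries (log2 fold change 2.22 ± 0.16), and Slamf6 at 27.1 and 29.5 CPM with anti-IgM, against 6.13 and 6.38 CPM unstimulated (2.20 ± 0.16). S1pr4, a receptor for sphingosine 1-phosphate, was at 12.01 and 20.2 CPM with anti-IgM, against 2.91 and 2.61 CPM unstimulated (2.58 ± 0.27), and Itgam at 8.06 and 8.86 CPM with anti-IgM, against 0.613 and 0.307 CPM unstimulated (4.16 ± 0.35). Itgam is a myeloid marker, and the part of such cells in its level was not tested. Trafficking receptors and integrins were called higher in 12 of 26 and lower in 6, against 22.8% and 23.3% of all tested genes. Among B cell surface and activation markers 13 of 32 were called higher and 10 lower, beside the same shares of all tested genes. The higher count was 7 without the run block and the lower count 6 without the run block. Vpreb3, a chaperone-like protein of the pre-B cell receptor, was at 11.8 and 15.4 CPM with anti-IgM, against 2.15 and 2.54 CPM unstimulated (2.56 ± 0.24). Of B lineage transcription factors 17 of 31 were called higher and 3 lower, led among stable calls by Id3, which blocks E proteins (38.2 and 52.3 CPM with anti-IgM, against 12.1 and 16.1 CPM unstimulated, 1.70 ± 0.18), and Klf13 (1.34 ± 0.11). Members called higher numbered 9 without the run block, 10 without the unstimulated library of run R137, and 11 without the unstimulated library of run R143.

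Genes of the membrane skeleton, annexins and S100 calcium-binding proteins were called higher in 21 of 26 and lower in none, with a median log2 fold change of 0.71 (0.73 in run R137 and 0.66 in run R143). Tgm2, a protein crosslinking enzyme, was at 22.04 and 18.9 CPM in the anti-IgM libraries, against 2.15 and 1.61 CPM in the unstimulated libraries (3.45 ± 0.22), S100a6 at 10.7 and 16.8 CPM with anti-IgM, against 1.46 and 1.54 CPM unstimulated (3.24 ± 0.30) and S100a4 at 29.4 and 35.6 CPM with anti-IgM, against 8.89 and 6.76 CPM unstimulated (2.09 ± 0.18). The anti-IgM libraries were above the unstimulated ones in each. Lysosome and autophagy genes were called higher in 28 of 37 and lower in 3 (median 0.49), with the protease gene Ctsh at 203 and 236 CPM with anti-IgM, against 104 and 115 CPM unstimulated (1.01 ± 0.09) beside Gm2a. Without the unstimulated library of run R137 the count of higher members was 18. Mt2, a metallothionein that binds zinc, was at 12.5 and 17.4 CPM with anti-IgM, against 1.69 and 1.84 CPM unstimulated (3.13 ± 0.28), and the secreted factor Tgfb3, of the TGF-beta family, at 14.3 and 14.4 CPM with anti-IgM, against 2.15 and 1.77 CPM unstimulated (2.88 ± 0.22). Csf1, a macrophage growth factor, rose to 3.12 and 3.23 CPM with anti-IgM, against 1.38 and 0.461 CPM unstimulated (1.87 ± 0.39).

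Shares called in either direction were under the 46.1% of all tested genes for oxidative phosphorylation, proteasome and histone genes, but not for microRNA processing or glycolysis genes. The share of proteasome genes called lower was not under the 23.3% of all tested genes. Oxidative phosphorylation genes were called in 3 higher and 11 lower of 77, against 22.8% and 23.3% of all tested genes. The lower count was 3 without the run block, 6 by DESeq2's Wald test, 7 without the unstimulated library of run R137 of the control line or without the unstimulated library of run R143 of the control line, 5 without the unstimulated library of run R137, 4 without the unstimulated library of run R143, and 2 without the anti-IgM library of run R143. Proteasome subunits were called in 2 higher and 10 lower of 37, with a lower count of 2 without the run block or without the unstimulated library of run R137, 5 by DESeq2's Wald test or without the unstimulated library of run R143, and 1 without the anti-IgM library of run R143. Clustered histone genes, whose mature transcripts mostly lack a polyA tail, were called higher in 2 of 51. MicroRNA processing and silencing genes were called higher in 5 and lower in 5 of 20, close to the shares of all tested genes, with the exporter gene Xpo5 (-0.79 ± 0.09) and Dicer1, which cuts the precursor hairpin (-0.51 ± 0.08), lower, and the silencing factor gene Ago4 higher (1.11 ± 0.13). Members called higher numbered 2 without the run block, without the unstimulated library of run R137 or without the anti-IgM library of run R143, 3 by DESeq2's Wald test, and 1 without the unstimulated library of run R143, and the lower count 3 without the run block. Glycolysis genes were called higher in 6 and lower in 9 of 24, against 22.8% and 23.3% of all tested genes. Hexokinase Hk1 (9.70 and 9.69 CPM with anti-IgM, against 3.22 and 2.61 CPM unstimulated, 1.75 ± 0.22) and the neuronal enolase gene Eno2 (1.21 ± 0.27) rose, and the lactate carrier gene Slc16a1 (-1.10 ± 0.14) and Ldhb (-1.04 ± 0.10) fell.

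The response was set beside that of the control line, which shares no libraries with it. In the control line 3929 genes (34.8%) were called, 17.6% higher and 17.2% lower. Genes called higher in both lines numbered 1621, which is 63.1% of the higher calls in the miR-148a line and 81.5% of those in the control line. Genes called lower in both numbered 1667, or 63.2% and 85.9%, and 7 genes were called in opposite directions. Of the genes called in the miR-148a line, 2479 of 2569 higher and 2556 of 2636 lower ones had the same sign of fold change in the control line. A call in 1 line and not in the other does not show a difference, and the difference itself was called for 11 genes (0.0974%), 7 with a higher fold change in the miR-148a line and 4 with a lower one. At an unadjusted p under 0.05 there were 1315, and DESeq2's Wald test called 42. Without the run block the count of 11 was 0, and over fits that left out 1 library each it ran from 0, without the unstimulated library of run R143 of the miR-148a line, to 374, without its anti-IgM library of run R137.

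The lists of growth and interferon genes moved in both lines. Ribosome biogenesis genes were called lower in 49 of 49 in the miR-148a line and 48 in the control line, with medians of -0.82 and -0.54. Interferon-stimulated genes were called higher in 31 and 27 of 36 (medians 0.93 and 0.83). MHC class II genes were called higher in 12 and 6 of 14 (medians 1.23 and 0.43). Their summed level was 310 and 494 CPM with anti-IgM, against 194 and 229 CPM unstimulated in the miR-148a line. In the control line it was 556 and 692 CPM with anti-IgM, against 506 and 400 CPM unstimulated. The miR-148a line thus had the lower mean class II level in both conditions. No member of any of these 3 lists was called for the difference. Myc was at 55.4 and 137.3 CPM with anti-IgM, against 257 and 296 CPM unstimulated in the control line (log2 fold change -1.52 ± 0.21), and its difference between lines was -0.59 ± 0.30 (edgeR adjusted p = 0.475). Ciita was at 74.5 and 97.6 CPM with anti-IgM, against 34.97 and 32.9 CPM unstimulated there (1.28 ± 0.19; difference 1.07 ± 0.30, adjusted p = 0.19), and Itgb7 at 73.2 and 61.5 CPM with anti-IgM, against 27.5 and 15.4 CPM unstimulated (1.60 ± 0.19; difference 1.03 ± 0.26, adjusted p = 0.132).

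**Figure D4:**
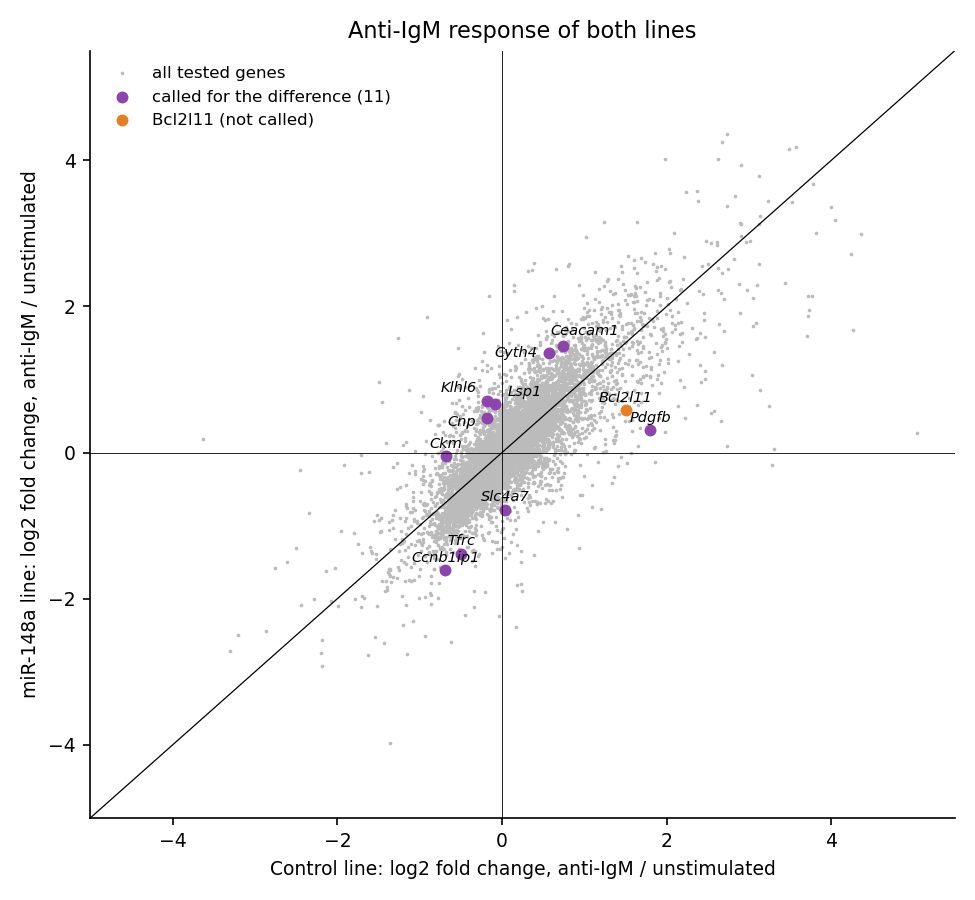
Each point is 1 tested gene, with its log2 fold change, anti-IgM over unstimulated, in the miR-148a line on the y axis and in the control line on the x axis, and the line marks equal changes. Purple points are the genes called for the difference, such as Tfrc at -1.38 and -0.50, orange is Bcl2l11 at 0.58 and 1.51, and 8 genes lie outside the axes.

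Tfrc, the transferrin receptor through which cells take up iron, had the lowest adjusted p for the difference. It was at 359 and 304 CPM in the anti-IgM libraries, against 880.0 and 842 CPM in the unstimulated libraries in the miR-148a line, a log2 fold change of -1.38 ± 0.07, and at 817 and 673 CPM with anti-IgM, against 1086 and 1008 CPM unstimulated in the control line (-0.50 ± 0.07). The difference was -0.89 ± 0.10 (edgeR adjusted p = 0.0053), and the anti-IgM libraries of the miR-148a line were the lowest of all 8. Without the unstimulated library of run R143 of the miR-148a line its adjusted p was 0.0814. Ccnb1ip1, a ubiquitin ligase gene, was at 22.4 and 18.4 CPM with anti-IgM, against 68.9 and 55.5 CPM unstimulated in the miR-148a line and at 50.6 and 40.00 CPM with anti-IgM, against 73.7 and 71.4 CPM unstimulated in the control line (difference -0.92 ± 0.15, adjusted p = 0.0398). Slc4a7, a bicarbonate carrier gene, was at 38.6 and 40.6 CPM with anti-IgM, against 69.03 and 67.6 CPM unstimulated in the miR-148a line, and at 76.01 and 69.05 CPM with anti-IgM, against 67.00 and 74.3 CPM unstimulated in the control line (difference -0.82 ± 0.13, adjusted p = 0.0398). For Slc4a7 the anti-IgM libraries of the miR-148a line alone were low. Pdgfb, a platelet-derived growth factor gene, was at 10.9 and 11.9 CPM with anti-IgM, against 10.1 and 8.46 CPM unstimulated in the miR-148a line, where it was not called (0.30 ± 0.17), and at 14.7 and 18.1 CPM with anti-IgM, against 5.04 and 4.42 CPM unstimulated in the control line (1.799 ± 0.18; difference -1.50 ± 0.25, adjusted p = 0.0414).

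The genes with a higher fold change in the miR-148a line included regulators of lymphocyte shape and signalling. Klhl6, an adaptor for ubiquitin ligase in germinal centre B cells, was at 75.3 and 86.5 CPM with anti-IgM, against 47.96 and 51.3 CPM unstimulated in the miR-148a line, and at 76.01 and 73.2 CPM with anti-IgM, against 85.02 and 82.9 CPM unstimulated in the control line (difference 0.89 ± 0.13, adjusted p = 0.0176). Lsp1, an actin-binding protein of leukocytes, was at 596 and 666 CPM with anti-IgM, against 368 and 433 CPM unstimulated in the miR-148a line, and at 421 and 459 CPM with anti-IgM, against 466 and 464 CPM unstimulated in the control line (difference 0.74 ± 0.10, adjusted p = 0.0176). For both, the unstimulated miR-148a libraries were lowest of the 4 groups by mean. Cyth4, an exchange factor for ARF proteins, was called higher in both lines, with 1.36 ± 0.08 in the miR-148a line and 0.57 ± 0.08 in the control line (difference adjusted p = 0.0176). Ceacam1, an inhibitory adhesion receptor, had 1.46 ± 0.09 and 0.75 ± 0.09 (adjusted p = 0.0414). Cnp, a phosphodiesterase gene known from myelin, had 0.48 ± 0.08 and -0.18 ± 0.08 (adjusted p = 0.0414). Ckm, muscle creatine kinase, was not called in the miR-148a line (-0.05 ± 0.07) and fell in the control line (-0.69 ± 0.08; adjusted p = 0.0414). The last of the 11, 1700088E04Rik, was at 2.63 and 1.66 CPM with anti-IgM, against 0 and 0 CPM unstimulated in the miR-148a line, at least 9.29-fold higher by the mean against a floor of 3 counts per library, and at 0.837 and 0.522 CPM with anti-IgM, against 0.721 and 0.812 CPM unstimulated in the control line. All 11 kept the direction of the difference under every other setting run, and all lost the call without the run block.

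**Figure D5:**
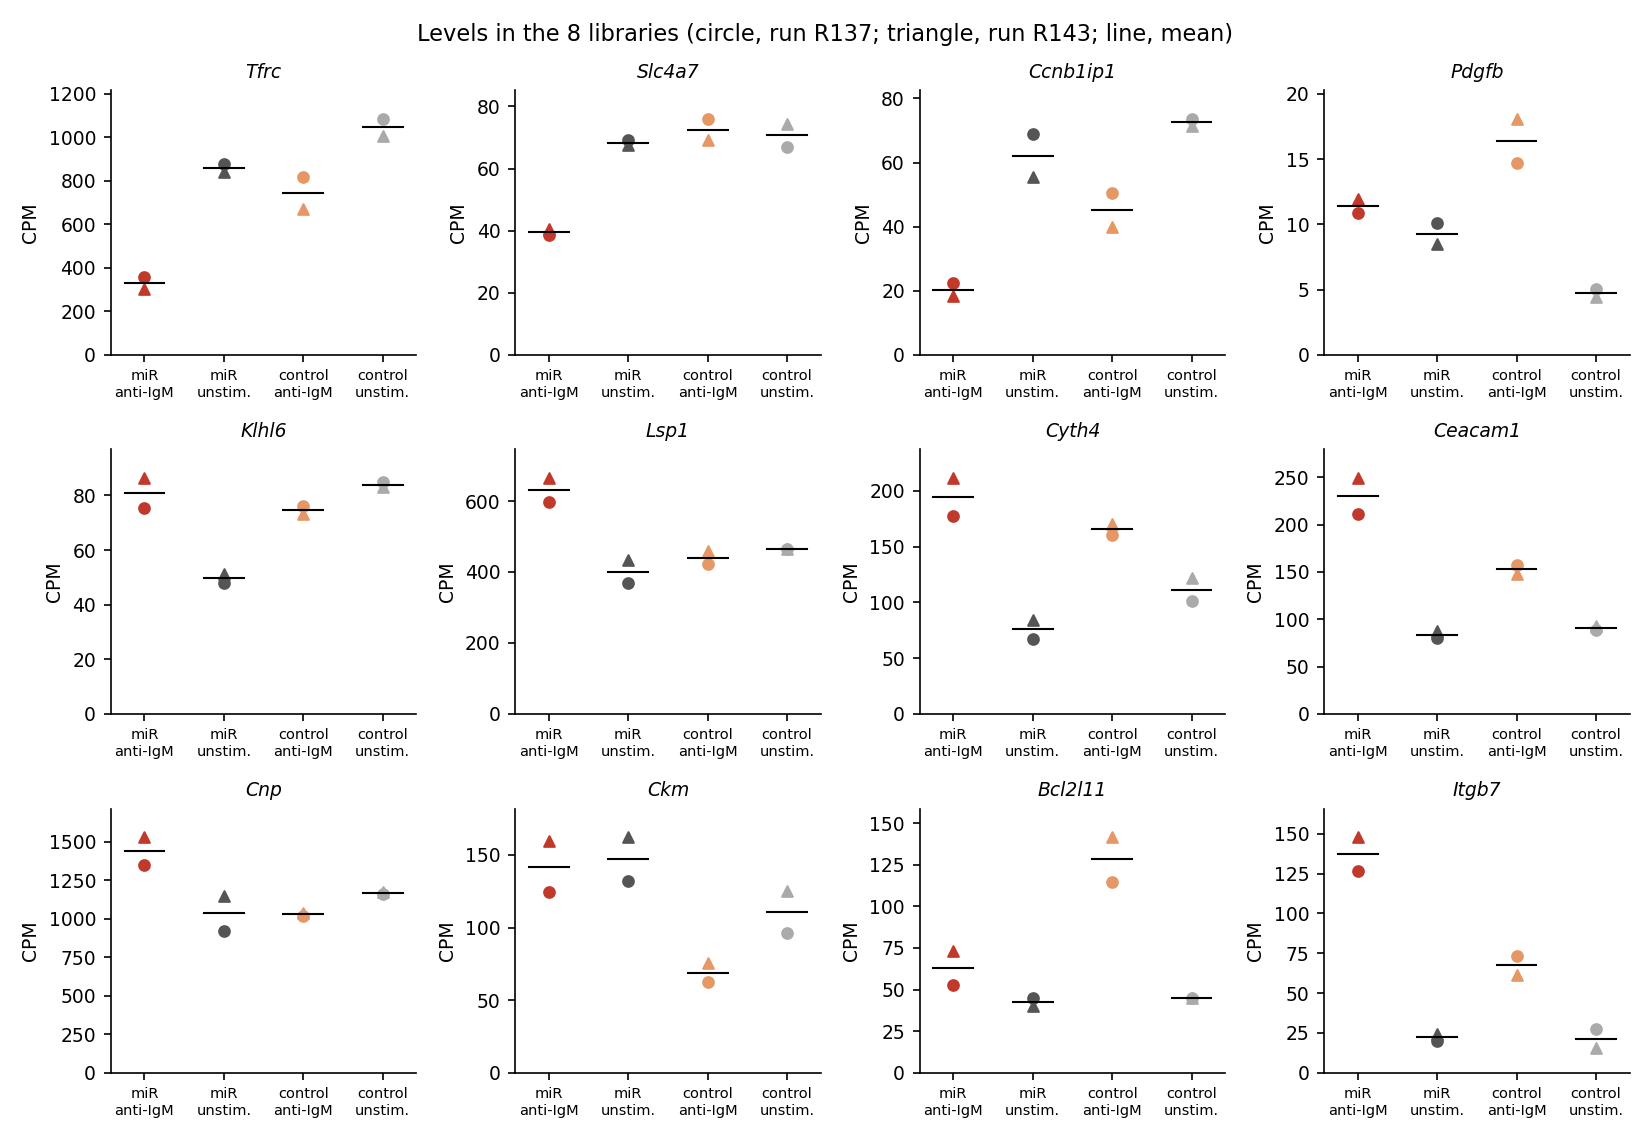
CPM of 10 genes called for the difference, with Bcl2l11 and Itgb7 for comparison, in the 8 libraries, with the miR-148a line left of the control line, anti-IgM left of unstimulated, circles for run R137, triangles for run R143 and bars at the mean of 2 libraries. For Tfrc the anti-IgM libraries of the miR-148a line lie lowest, and for Bcl2l11 the anti-IgM libraries of the control line lie highest.

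Of the reported targets of miR-148a, Bcl2l11 was compared in the same way, and Gadd45a is given in the miR-148a line only. Bcl2l11 was at 52.8 and 73.00 CPM with anti-IgM, against 44.7 and 39.97 CPM unstimulated in the miR-148a line, and at 115 and 142 CPM with anti-IgM, against 45.1 and 44.9 CPM unstimulated in the control line. The difference of the fold changes was -0.93 ± 0.17 and did not pass (edgeR adjusted p = 0.0605). It passed in 5 of 12 other settings. Among these were edgeR with no filter on low counts (adjusted p = 6.27e-07), where 348 genes were called for the difference, and DESeq2's Wald test (0.00713). It did not pass without the run block or with DESeq2 size factors (edgeR adjusted p = 0.0583). With 1 library left out the difference ran from -1.17, without the anti-IgM library of run R143 of the miR-148a line, to -0.72, without the unstimulated library of run R137 of that line. Gadd45a was at low levels in the miR-148a line, 1.15 and 0.738 CPM with anti-IgM, against 1.84 and 0.922 CPM unstimulated, and was not called (-0.50 ± 0.44). The 8-base seed matches in the longest annotated 3′ UTRs of Bcl2l11 and Gadd45a (GRCm38) are shown, in capitals, because the microRNA could pair with them. They lie at chr2:128162399-128162426, plus strand, in Bcl2l11 and at chr6:67035610-67035637, minus strand, in Gadd45a. Bcl2l11 also holds 7-base matches, not shown, at chr2:128158468-128158495 and chr2:128159227-128159254. Pdgfb, the gene with a seed match among the 11, holds the 7-base match at chr15:79996441-79996468, minus strand.
Bcl2l11: ctttacgtttTGCACTGAtgaattttga
Gadd45a: tgaaccaaatTGCACTGAagttttgaaa
Pdgfb: ttgcacatgaTGCACTGcgtgtggagac

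Across the tested genes, the shares called were close with and without such sites. At least 1 seed match of 7 or 8 bases stood in the longest 3′ UTR of 1810 genes, of which 22.87% were called higher and 24.03% lower. Of 9053 genes without one 23.14% were called higher and 23.64% lower. The median difference of fold changes between lines was -0.03 with a match and -0.02 without, and among 514 genes with an 8-base match it was -0.04. Genes with a match had longer 3′ UTRs, with a median of 2477 bases against 1164 bases. Of the literature targets of miR-148a measured, 6 of 18 were called higher with anti-IgM and 6 lower. None was called for the difference of the anti-IgM response between lines. An effect of the microRNA that is equal in both conditions cancels in these values, so they cannot show it. The summed level of the 18 unstimulated was 1893 and 1977 CPM in the miR-148a line and 2160 and 2260 CPM in the control line. With anti-IgM it was 1728 and 1966 CPM, and 2144 and 2209 CPM. These levels were not tested.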

How the data were processed

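The authors deposited 1 table of estimated counts (expected counts) per gene symbol, not normalised, in which 9.65% to 12.2% of the values in the libraries of the miR-148a line were not whole. Per the submitters' processing notes, the tools were TopHat2 2.0.13 and Bowtie2, cutadapt, CASAVA 1.8, edgeR and Partek 6.15.0730, and the builds GRCm38 and mm10. What each tool did is not given in the sources used here, nor is the annotation or any strand setting, so reads of overlapping, antisense or near-identical genes may not have been told apart. Of 24081 rows, 27 with names turned into calendar dates, 0.213% to 0.235% of each library's counts, name no gene and were left out. No column of another sample was present.

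Estimated counts were rounded and tested with edgeR 4.0.16 in R 4.3.3 (limma 3.58.1): filterByExpr by group, TMM factors, quasi-likelihood F test on 4 group means with run as a block in all 8 libraries, and Benjamini-Hochberg adjustment over the 11291 genes kept, at a threshold of 0.05. The fit left 3 residual degrees of freedom, shared by all groups, and a biological coefficient of variation of 5.98%. A value after ± is the standard error of the log2 fold change before it. Run values are differences of log2 CPM with a prior count of 2, without a test. Within groups the libraries differed beyond sampling noise (chi-square per gene 9.47 to 13.7 on average). The block is taken from the label prefixes, and deviations from the group means correlated between libraries of 1 run, with r from 0.495 to 0.569 over 6 group pairs, computed across genes, which are not independent. Libraries held 5810227 to 18660373 counts. Floors cover counting error only, while standard errors come from the quasi-likelihood fit and include the spread between libraries.

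The 61 gene lists, the comparison and the rule for named genes were chosen with earlier results of these data known. Named genes are the 15 largest rises and 15 largest falls of called genes whose log2 CPM averaged 3 or more and whose sign was the same in both runs, the 8 largest gains and losses of CPM, up to 4 called and 2 uncalled members of each list, and the genes called for the difference. Some genes taken by this rule are not reported here, and Isg15, Gbp3, Nop2, Rrn3 and 1700088E04Rik were named after their values were seen. The lists are described by counts and medians, without a set test. Promoter windows and the mature microRNA come from RefSeq (GRCm38.p6), and 9040 of the 11291 genes matched a promoter by symbol. Seed sites were read from the longest 3′ UTR of each gene in the reference annotation of GRCm38. Other settings were a fit with no block, DESeq2 1.42.0 size factors, no filter, DESeq2's Wald test, the 4 libraries of the miR-148a line alone, and each library left out. Python 3.11.15 was used for motifs and figures.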

Additional observations from a re-analysis of the deposited data

Results flagged for a closer look

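In 11 genes the anti-IgM response differed between the miR-148a line and the control line by the test of the difference itself (edgeR's quasi-likelihood F test with the run block, adjusted over 11291 genes). Values are differences of log2 fold changes, the miR-148a line minus the control line. The response was lower in the miR-148a line for Tfrc (-0.886, adjusted p = 0.0053), Ccnb1ip1 (-0.923, adjusted p = 0.0398), Slc4a7 (-0.816, adjusted p = 0.0398) and Pdgfb (-1.5, adjusted p = 0.0414). The response was higher in the miR-148a line for Cyth4 (0.789), Klhl6 (0.889) and Lsp1 (0.742), each with an adjusted p of 0.0176, and for Ceacam1 (0.715), Cnp (0.663) and Ckm (0.633), each with an adjusted p of 0.0414. For 1700088E04Rik the fitted difference was 7.72 (adjusted p = 0.0475). That value depends on the prior count, since both unstimulated libraries of the miR-148a line held 0 counts of it. Each of the 11 had the same sign of the difference in both runs, which follows largely from the call. Causes of these differences were not tested. Groups of 2 libraries are too small for a search for single outlying libraries.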

How the results depend on the processing

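The miR-148a line response of 5205 called genes kept all its signs in the settings run, save 2 genes without the unstimulated library of run R143 and 4 without the anti-IgM library of run R143. Without the replicate block by run, 3238 genes were called (1659 higher, 1579 lower), all among the 5205, the control line had 1925 (1084 higher, 841 lower) and the difference between lines 0 (0 and 0; 484 at an unadjusted p under 0.05). Leaving out 1 library gave 3295 to 5236 response calls (1618 to 2579 higher, 1656 to 2678 lower), 2083 to 4426 in the control line (1094 to 2209 higher, 989 to 2217 lower) and 0 to 374 for the difference (0 to 164 higher, 0 to 210 lower). With no filter the difference was called for 348 genes (241 higher, 107 lower), and by DESeq2's Wald test for 42 (31 higher, 11 lower), 9 of them shared. That test called 3732 response genes, and 1228 higher in the control line. DESeq2 size factors moved none of these counts over all genes by over 1.5 times. Counts of 3 or fewer members of a list ran from 0 to 5 over the settings and libraries left out. The causes were not tested. Of the 178 genes named here whose response was called, 175 kept the call in every setting run, and Bcl2l11, Malat1 and Rn45s did not. Sign changed, among named genes that were not called, for Isg15 (0.00047 in a fit to the 4 libraries alone, -0.17 to 0.14 with 1 library left out), Qars (-0.0011 to 0.10) and Rfxap (-0.32 to 0.15), the last 2 with 1 library left out. The run R137 anti-IgM library is the shallowest of the line, with 5977803 counts, so levels under 0.493 CPM cannot be told from 0 there. Groups of 2 libraries with 3 residual degrees of freedom limit all tests. A library left out leaves its group with 1, which is then assumed to vary like the others.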

Other observations

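Secreted factors and regulators of plasma cells, zinc and ERK were called in both directions in the miR-148a line, where 22.8% of all tested genes were called higher and 23.3% lower. Of 16 measured cytokines, chemokines and growth factors, 4 were called higher with anti-IgM and 6 lower. The chemokine gene Ccl17, which attracts T cells, was at 2.96 and 2.77 CPM in the anti-IgM libraries, against 9.42 and 6.84 CPM in the unstimulated libraries (log2 fold change -1.48 ± 0.23), and Il12a, the p35 chain of interleukin 12, at 3.12 and 2.77 CPM with anti-IgM, against 8.35 and 6.76 CPM unstimulated (-1.37 ± 0.24). Both anti-IgM libraries lay below both unstimulated ones for these genes. Of 17 metallothionein and zinc transport genes 4 were called higher and 5 lower, with the importer genes Slc39a14 (-1.18 ± 0.13) lower and Slc39a4 (1.02 ± 0.13) higher, shares close to those of all genes. The lower count was 3 without the anti-IgM library of run R143. Plasma cell genes were called higher in 2 of 11 and lower in 4, with a lower count of 1 without the run block or without the anti-IgM library of run R143, and 2 without the unstimulated library of run R137 or without the unstimulated library of run R143. ERK phosphatases, Sprouty and Spred genes were called higher in 5 of 11 and lower in 2. The higher count was 2 without the run block, by DESeq2's Wald test or without the unstimulated library of run R137, 3 without the anti-IgM library of run R137, and 1 without the unstimulated library of run R143 or without the anti-IgM library of run R143. Fatty acid synthesis genes were called higher in 3 of 15 and lower in 6, with the glycerol acyltransferase gene Gpam (-0.66 ± 0.11) and the carboxylase gene Acaca (-0.60 ± 0.07) lower. The higher count was 1 without the run block or without the unstimulated library of run R137, and the lower count 3 without the run block, without the unstimulated library of run R143 or without the anti-IgM library of run R143.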
